A study of Mus musculus with 22 samples.

Results

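The comparison described here is that of haematopoietic stem cells (HSCs) sorted from the bone marrow of wild-type mice that had 7 days of granulocyte colony-stimulating factor (G-CSF) with the same cells from wild-type mice given saline. It rests on 7 of the 22 RNA-seq libraries of the series, 3 from G-CSF-treated and 4 from saline-treated mice, taken by their genotype, tissue and treatment labels. All cells were sorted as Kit+ Sca-1+ lineage-negative (KSL) cells that lacked CD48 and carried CD150, and the wild-type mice were littermates of mice without the tetraspanin Cd53. The other 15 libraries came from Cd53 knockout (KO) marrow after saline (3) or G-CSF (4), and from the spleens of wild-type (4) and KO (4) mice after G-CSF. The treated KO and spleen groups had the same 7 days of G-CSF as the treated wild-type marrow group. The mice's sex and age are not in the labels used here. Nothing in the labels says whether libraries of a group came from separate animals, so the tests measure the spread between libraries.

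G-CSF is the cytokine that drives neutrophil production. It binds its receptor, encoded by Csf3r, which has no kinase of its own and signals through JAK kinases and the transcription factors STAT3 and STAT5, while SOCS3 switches the receptor off again. Given over several days, G-CSF also moves HSCs out of the marrow into blood and spleen, acting largely through other marrow cells, and it is used clinically for that purpose. HSCs in untreated adult marrow are mostly quiescent.

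Reads assigned to the 13594 listed genes ranged from 26455964 to 31268856 in the 7 libraries, so that 3 reads corresponded to 0.0918 to 0.116 CPM, the count scaled to a common library size. The deposited values are log2 CPM, and every level below is in that unit unless said otherwise. Markers of HSCs were present in all 7 libraries, their summed level being 4428 to 4995 CPM after saline and 3598 to 4112 CPM after G-CSF. None of the 5 T and NK cell markers checked (Cd3e, Cd3d, Cd3g, Ncr1 and Il2rb) was among the listed genes. Other genes of these cells were present, such as Lck at 1095 to 1647 reads and Nkg7 at 1989 to 3589 reads. In that wider list 3 of 7 tested genes rose. Of 9 granulocyte markers 7 were listed, and these summed to 213 to 400 CPM after saline and 499 to 673 CPM after G-CSF, mostly from Prtn3. Saline library 3 stood apart in this list: Elane was at 4.71 there against -1.25 to 0.24 in the other saline libraries, Ngp at 5.82 against -1.35 to 0.07, and Mpo at 5.63 against 0.89 to 2.06. The part of those transcripts in the results was not tested, and without that library 1228 genes passed the test in place of the 1528 given next. In bulk RNA, fewer cells of a type and less RNA per cell cannot be told apart.

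After G-CSF, 764 genes were higher and 764 were lower than after saline, each 5.62% of the 13586 genes tested (limma on log2 CPM, Benjamini-Hochberg adjusted p below 0.05, with residual variance from all 22 libraries). The rises were smaller at the median, 1.58-fold against 1.82-fold for the falls. Fewer genes rose beyond 2-fold (251 genes, 1.85%) than fell beyond 2-fold (327 genes, 2.41%). Genes that rose lay at a median level of 5.94 and genes that fell at 4.08, against 4.67 for all genes tested. Without overlap between the groups, 1521 genes were higher (11.2%) and 1515 lower (11.2%). The largest rises and falls named below were taken from genes without overlap, so their separation follows from that choice. The split depends on the scaling: when each library was scaled to the sum of its listed genes, 556 genes rose and 1047 fell, with the median over all genes moved by -0.0752. Leaving out G-CSF library 3 lowered the total to 969 genes (474 rises and 495 falls), and leaving out saline library 2 left 480 falls. The SD over genes of the log2 difference between 2 libraries was 0.585 to 0.896 within a group (9 pairs) and 0.968 to 1.05 between the groups (12 pairs).

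**Figure D1:**
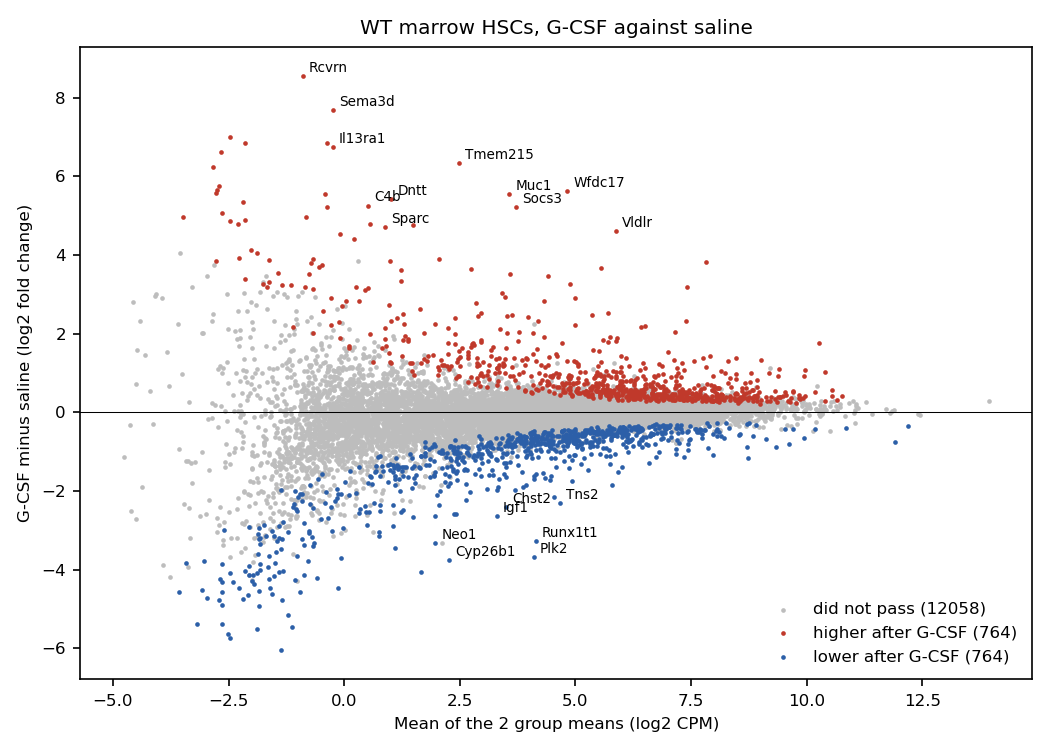
Mean of the 2 group means (x axis, log2 CPM) against the log2 fold change after G-CSF (y axis) for the 13586 tested genes. The 764 rises and 764 falls that passed an adjusted p of 0.05 are coloured, the other 12058 are grey, and genes with the largest changes are named; the largest changes lie at low and middle levels.

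Among genes that respond to STAT3 or STAT5, more rose than fell. Of 35 tested, 11 rose and 2 fell, with a median log2 change of 0.38 against -0.01 over all genes. The gene lists used here share some members. One fall was left without G-CSF library 1. Socs3 (ENSMUSG00000053113, GRCm38 chromosome 11, 117966079 to 117970047, minus strand), the STAT3-induced inhibitor of the G-CSF receptor, was at 0.67, 1.25, 0.71 and 1.75 in the saline libraries and at 6.39, 6.34 and 6.23 in the G-CSF libraries. Its lowest G-CSF value was far above its highest saline value, and the change was 5.23 ± 0.24 (SE) on the log2 scale, or 37.4-fold, with an adjusted p of 2.89e-13. Muc1, a membrane mucin and known STAT3 target, was at 0.90, 1.29, -0.10 and 1.10 after saline and 6.59, 6.15 and 6.27 after G-CSF. It changed by 5.54 ± 0.23 (adjusted p = 3.39e-14). Among other members, Gadd45g, a growth arrest gene, rose by 3.51 ± 0.39, the serine/threonine kinase genes Pim1 and Pim2 by 1.33 ± 0.19 and 1.78 ± 0.25, and Stat3 itself by 0.93 ± 0.13. Osm, which encodes the cytokine oncostatin M, rose by 1.14 ± 0.24. Ccnd2, the D-type cyclin gene, fell by 0.89 ± 0.12. Cish and Socs2, the STAT5-induced relatives of Socs3, did not pass the test, at 0.32 ± 0.36 (adjusted p = 0.637) and 0.02 ± 0.16 (adjusted p = 0.962).

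The promoters of Socs3 and Csf2rb2, both of which rose, are shown for what their sequences hold. The window ran from 250 bases before to 50 after the start of transcription (RefSeq, GRCm38.p6), with 1 promoter per gene. The motif searched, on both strands, was the palindromic STAT motif TTCNNNGAA, set in capitals below. It was present in the Socs3 promoter (chr11:117969317-117969616, minus strand) from base -154, and in that of Csf2rb2 (chr15:78305672-78305971, minus strand) from base -15.
Socs3: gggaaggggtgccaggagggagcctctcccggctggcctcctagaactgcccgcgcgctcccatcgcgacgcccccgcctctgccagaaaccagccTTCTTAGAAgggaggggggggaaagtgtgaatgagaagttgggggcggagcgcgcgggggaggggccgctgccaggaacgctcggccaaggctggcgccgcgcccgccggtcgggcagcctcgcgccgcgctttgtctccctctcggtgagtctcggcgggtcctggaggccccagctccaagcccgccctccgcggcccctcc
Csf2rb2: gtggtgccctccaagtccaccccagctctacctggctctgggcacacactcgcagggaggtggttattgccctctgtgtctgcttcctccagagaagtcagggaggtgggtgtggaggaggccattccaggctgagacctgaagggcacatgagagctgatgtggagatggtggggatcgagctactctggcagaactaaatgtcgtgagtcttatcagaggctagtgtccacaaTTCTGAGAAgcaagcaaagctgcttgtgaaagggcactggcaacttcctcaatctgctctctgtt
These letters were not found in that window for Muc1 or Cd53. Over all 9977 tested genes with a promoter, 8.23% held the motif, compared with 10.88% of the 588 that rose and 8.44% of the 545 that fell. The motifs and the genes shown were chosen after the values were seen, and a match is a description of the sequence only. Some other motifs were searched as well and are not reported here.

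Cytokine receptor genes made up the second group of rises. Of 50 tested JAK-STAT receptors and kinases, 14 rose and 2 fell (median 0.18). Csf3r, the G-CSF receptor, was at 7.20, 6.88, 6.77 and 6.38 after saline and 7.72, 8.01 and 7.95 after G-CSF, without overlap, and rose by 1.09 ± 0.20 (adjusted p = 0.00088). Il10ra, which encodes the ligand-binding chain of the IL-10 receptor, was at 3.98, 3.15, 3.29 and 3.73 and 6.42, 6.57 and 6.33. All 3 G-CSF values of Il10ra lay more than 2 log2 units above every saline value, a change of 2.90 ± 0.17 (adjusted p = 4.44e-11). Csf2rb2 and Csf2rb, the beta chains shared by or related to the IL-3, IL-5 and GM-CSF receptors, rose by 1.56 ± 0.12 and 1.52 ± 0.17. These 2 genes are close copies, so the division of reads between them is uncertain. Il4ra rose by 1.39 ± 0.14 from a saline mean of 7.07 ± 0.10, and its partner chain Il13ra1 by 6.74 ± 0.64 from near the limit of detection, with saline values of -3.55, -1.25, -6.03 and -3.63 and G-CSF values of 3.07, 3.18 and 3.13. Il1r1, the IL-1 receptor, which signals through MyD88 and not through JAKs, went from 2.78 ± 0.57 to 5.19 ± 0.35 (SD), a change of 2.42 ± 0.24 (adjusted p = 3.73e-07). Jak2 (-0.30 ± 0.14, adjusted p = 0.196) and Il6st, the shared gp130 chain (-0.01 ± 0.17, adjusted p = 0.978), named after their values were seen, did not pass the test.

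**Figure D2:**
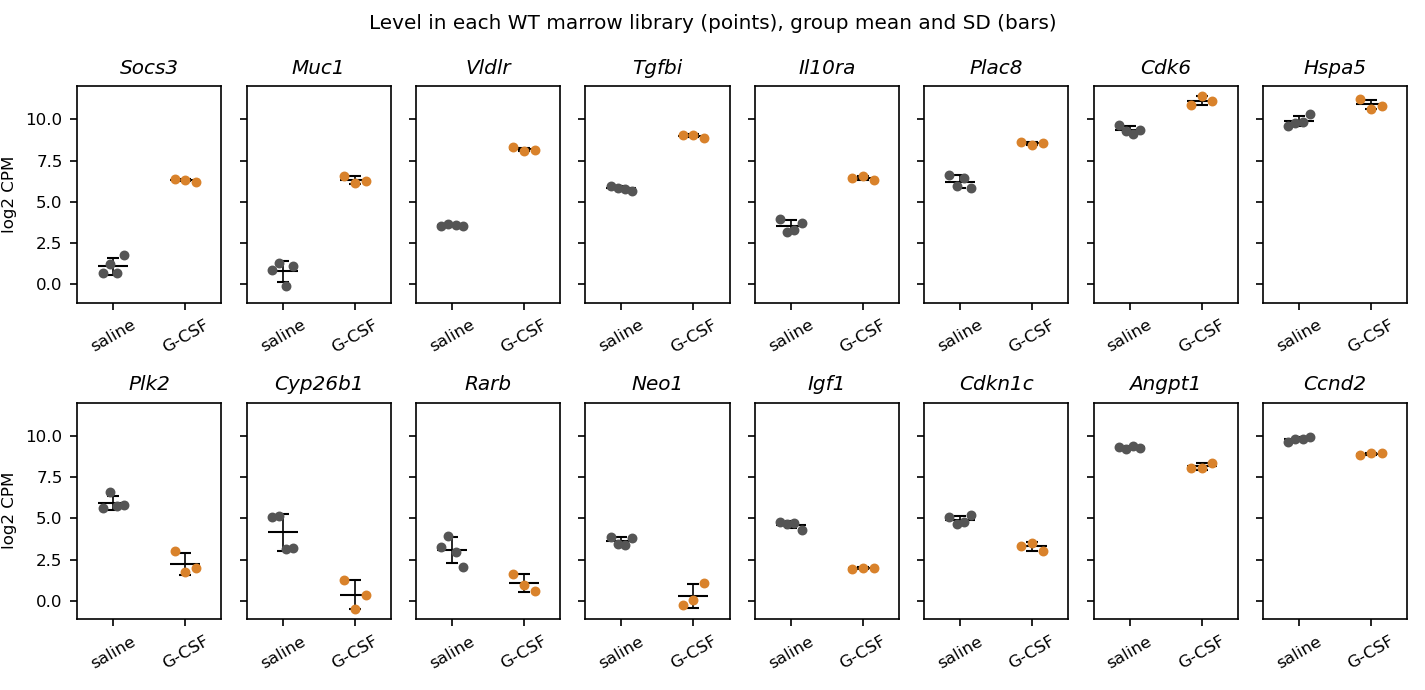
Level in log2 CPM (y axes) of 16 genes in each of the 4 saline and 3 G-CSF libraries of wild-type marrow; points are libraries and bars the mean and SD of a group. In every panel the groups are separate, as was required of genes chosen among the largest changes. The first panels show genes that rose (Socs3 from 0.67 to 1.75 up to 6.23 to 6.39) and the last ones genes that fell.

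The largest rise, among genes whose higher group averaged 3 log2 CPM or more, was that of Rcvrn, which encodes the calcium sensor recoverin, known from photoreceptors. Its reads numbered 1, 0, 0 and 1 in the saline libraries and 238, 282 and 413 in the G-CSF libraries, a ratio of pooled read rates of 665.9 with a counting interval of 183.8 to 5506.6 (95%). Sema3d, a secreted semaphorin, was at -4.29, -1.61, -4.45 and -5.95 and 4.29, 3.69 and 2.82, with a change of 7.68 ± 0.82 (adjusted p = 8.42e-07). Vldlr, the very low density lipoprotein receptor, had the smallest p of all tested genes: 3.52, 3.64, 3.57 and 3.57 after saline and 8.30, 8.11 and 8.16 after G-CSF, a change of 4.61 ± 0.13 or 24.5-fold (adjusted p = 1.99e-17). The libraries of each group lay close together for this gene. Wfdc17, a small secreted protein of the whey acidic protein family, rose by 5.63 ± 0.24, the lectin receptor gene Clec10a by 4.75 ± 0.54, the complement gene C4b by 5.25 ± 0.51, Tmem215 by 6.34 ± 0.42 and the matrix protein gene Sparc by 4.71 ± 0.71. C4b has a close copy in the mouse genome, which makes its reads uncertain. Sparc was uneven after saline, with values of 0.32, -2.84, -3.71 and 0.35, and after G-CSF it was at 3.21, 2.69 and 3.83. Lrg1, an acute phase glycoprotein, had 0 reads in all 4 saline libraries and 122, 39 and 44 in the G-CSF libraries, at least 22.3-fold higher than a floor of 3 reads per library. Ptprg, chosen after its values were seen, had 0, 3, 0 and 1 reads against 34, 35 and 55.

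Genes of more mature progenitors were higher in these cells, which had been sorted as lacking CD48. Of 30 tested genes of multipotent and lymphoid-primed progenitors, 13 rose and 0 fell (median 0.45), where 5.62% of all genes did so in each direction. Plac8, an interferon-gamma-inducible gene of early lymphoid and myeloid progenitors, was at 6.65, 5.95, 6.45 and 5.85 and then 8.61, 8.45 and 8.59. Its groups were more than 1 log2 unit apart at their closest, and the change was 2.32 ± 0.19 (adjusted p = 1.61e-08). Dntt, the terminal transferase of lymphoid progenitors, moved from -0.59, -2.10, -0.48 and -3.63 to 4.86, 3.26 and 3.06, so that every G-CSF library exceeded every saline library (5.42 ± 0.58). Cd34, the stem and progenitor surface sialomucin gene, changed by 1.09 ± 0.13. Flt3, the receptor that marks loss of long-term stem cell function, varied more between saline libraries (5.56, 6.51, 6.97 and 6.87) and stood at 7.85, 7.91 and 7.65 after G-CSF, a change of 1.33 ± 0.33 (adjusted p = 0.0103).

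The genes behind the sorting gate were checked as a group. Of 10 tested, 6 rose and 0 fell. Cd48, whose protein had to be absent, rose from 2.78, 1.77, 2.31 and 1.41 to 3.65, 3.85 and 4.04 (1.78 ± 0.31, adjusted p = 0.000391). Ly6a, which encodes Sca-1, rose by 1.16 ± 0.12, and Itgam, which encodes the lineage marker CD11b, by 2.33 ± 0.22 from 3.04 ± 0.42 (SD). Kit (-0.47 ± 0.20, adjusted p = 0.134) and Slamf1, which encodes CD150 (-0.20 ± 0.18, adjusted p = 0.535), did not pass the test. The summed level of the 5 multipotent progenitor markers was 579 to 714 CPM after saline and 1549 to 1678 CPM after G-CSF. Their part in the results was not tested.

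Myeloid genes rose in part. Of 32 tested granulocyte genes, 8 rose and 1 fell (median 0.37), and that fall was lost without G-CSF library 1 or saline library 1, 3 or 4. Prtn3, a neutrophil serine protease, was at 7.94, 7.78, 7.74 and 7.69 and then 9.38, 8.93 and 9.17, a change of 1.37 ± 0.16 (adjusted p = 3.23e-06). Cybb, the catalytic subunit of the phagocyte oxidase, rose by 3.84 ± 0.83, and the values after saline ran from -3.63 to 1.65, highest in saline library 3. Mpo and Elane, the primary granule genes, were at -1.47 to 1.77 and -0.54 to 0.93 after G-CSF. Mpo in G-CSF libraries 1 and 2, at -1.47 and 0.57, lay below all saline libraries. Both genes were lower in every G-CSF library than in saline library 3. Of 23 tested monocyte and macrophage genes, 7 rose and 2 fell (median 0.89), with 1 fall left without G-CSF library 2 or 3 or saline library 3. Cd68, a lysosomal glycoprotein of phagocytes, was at 5.11, 4.68, 5.05 and 5.03 and 6.70, 6.91 and 6.72, and Ctss, the cathepsin S gene, at 5.04, 4.83, 4.72 and 5.21 and 6.83, 6.86 and 6.81. Neither gene overlapped between the groups, and they changed by 1.81 ± 0.12 and 1.89 ± 0.15. Fcer1g, the shared gamma chain of Fc receptors, fell by 0.85 ± 0.12. The summed level of the monocyte markers stayed low, at 1.49 to 3.85 CPM after saline and 4.21 to 5.86 CPM after G-CSF. Among 26 tested C/EBP and myeloid transcription factor genes 1 rose and 1 fell: Id2, an inhibitor of helix-loop-helix factors, rose by 0.74 ± 0.17, and the clock gene Per3 fell by 0.64 ± 0.21, a call lost without any single library other than G-CSF library 2. That list had 2 rises without saline library 4 and 2 falls without G-CSF library 2.

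Stem cell genes moved in both directions. Of 49 tested HSC identity genes, 7 rose and 8 fell (14.29% and 16.33%, median -0.24). Fgd5, a guanine nucleotide exchange factor gene restricted to HSCs and endothelium, went from 5.29, 5.66, 5.42 and 5.64 to 4.81, 4.58 and 4.62, without overlap (-0.83 ± 0.14, adjusted p = 0.000285). Trpc6, a calcium channel gene, fell by 1.76 ± 0.24, and Vwf, the von Willebrand factor gene that marks platelet-biased HSCs, by 0.91 ± 0.17. The rises of this list included Ifitm1 (0.91 ± 0.09), Ly6a and Clca3a1 (1.0 ± 0.18). The marker genes Mecom (-0.30 ± 0.12, adjusted p = 0.104), Hlf (-0.15 ± 0.16, adjusted p = 0.616) and Procr (-0.29 ± 0.11, adjusted p = 0.0921), which encode 2 stem cell transcription factors and the endothelial protein C receptor, did not pass the test.

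Genes of quiescence that passed the test mostly fell. Of 31 tested, 8 fell and 1 rose (median -0.44), with 3 falls left without G-CSF library 1, 4 without G-CSF library 3 and 5 without saline library 1 or saline library 2. Cdkn1c, the p57 cyclin-dependent kinase inhibitor that holds HSCs in G0, was at 5.06, 4.65, 4.80 and 5.18 after saline and 3.35, 3.52 and 3.03 after G-CSF. The groups were more than 1 log2 unit apart, and the fall of 1.62 ± 0.22 (adjusted p = 2e-05) passed in every setting tried. Igf1, the growth factor gene, was at 4.79, 4.64, 4.72 and 4.32 and then 1.93, 1.98 and 2.02, a fall of 2.64 ± 0.27 or 6.23-fold (adjusted p = 4.14e-07). The 1 rise was that of Cdkn1a, the p21 inhibitor gene, at 1.57 ± 0.33. Angpt1, the ligand of the HSC receptor TIE2, was at 9.32, 9.23, 9.40 and 9.26 and 8.05, 8.03 and 8.36 and fell by 1.16 ± 0.16. Tek, the TIE2 gene, named after its values were seen, was at -0.08 ± 0.16 (adjusted p = 0.816).

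Igf1 was not alone in its pathway. Of 18 tested genes of IGF and insulin signalling, 7 fell and 0 rose (median -0.38), and between 5 and 7 fell when single libraries were left out. Pik3r1, the regulatory subunit of phosphoinositide 3-kinase, was at 7.71, 7.96, 7.90 and 8.14 after saline and 6.82, 6.68 and 6.83 after G-CSF, falling by 1.15 ± 0.11 (adjusted p = 1.93e-07) with no overlap. Igf2r, the IGF2 scavenger receptor, fell by 1.24 ± 0.19. Igf2bp2, which encodes an mRNA-binding protein, fell by 1.09 ± 0.23, and Lin28b, the fetal-stage regulator of let-7 microRNAs, by 2.05 ± 0.48 (adjusted p = 0.00641).

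Retinoid genes moved both ways. Of these, Cyp26b1 was among the largest falls without overlap, for genes whose higher group averaged 3 log2 CPM or more. Vitamin A signalling through retinoic acid receptors is known to keep HSCs dormant. Of 15 tested genes of the pathway 3 fell and 2 rose (median -0.22), with 1 rise left without G-CSF library 1 or 3. Cyp26b1, the enzyme that degrades retinoic acid, was at 5.07, 5.16, 3.18 and 3.21 after saline and 1.28, -0.49 and 0.37 after G-CSF. Saline libraries 1 and 2 were higher than saline libraries 3 and 4, yet all 4 exceeded every G-CSF library, and the fall was 3.77 ± 0.82 (adjusted p = 0.00361). Rarb, a retinoic acid receptor gene that is itself induced by retinoic acid, was at 3.27, 3.96, 2.98 and 2.07 and then 1.64, 0.99 and 0.61, a fall of 1.99 ± 0.42 (adjusted p = 0.0028). Dhrs3, a retinaldehyde reductase gene, went the other way, from 6.67, 7.30, 6.97 and 5.78 to 7.91, 8.03 and 7.83 (1.24 ± 0.25, adjusted p = 0.00197). The Rarb promoter (RefSeq, GRCm38.p6, chr14:16575427-16575726, minus strand) is shown because it holds a retinoid response element of 2 direct repeats, in capitals, from base -52. That motif, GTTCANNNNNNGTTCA on either strand with N for any base, was found for 5 of the 9977 tested genes with a promoter (0.05%).
Rarb: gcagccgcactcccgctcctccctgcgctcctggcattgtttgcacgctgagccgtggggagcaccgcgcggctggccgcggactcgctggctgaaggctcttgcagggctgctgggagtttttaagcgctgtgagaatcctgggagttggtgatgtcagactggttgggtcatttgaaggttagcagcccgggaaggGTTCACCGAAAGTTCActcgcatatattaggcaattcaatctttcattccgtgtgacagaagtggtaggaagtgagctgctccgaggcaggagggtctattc

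Among genes of the TGF-beta, BMP and activin family 9 of 36 rose and 4 fell (median 0.07, or 0.00 with 6 rises and 5 falls when scaled to the listed genes). Without saline library 2 only 5 rose, and 1 to 2 fell without G-CSF library 3 or saline library 1, 2 or 4. Tgfbi, the TGF-beta-induced matrix protein, was at 5.96, 5.86, 5.79 and 5.64 after saline and 9.07, 9.06 and 8.89 after G-CSF. The change of 3.19 ± 0.12, or 9.13-fold, had an adjusted p of 2.3e-14, and the groups were more than 2 log2 units apart. Skil, the SnoN co-repressor induced by TGF-beta, rose by 1.37 ± 0.18, and the receptor gene Acvrl1 by 2.82 ± 0.53. Bmp4, a ligand, fell from 0.50, 0.81, 1.42 and 1.32 to -2.29, -3.38 and -1.26 (-3.32 ± 0.67, adjusted p = 0.00182). Neo1, which encodes neogenin, a netrin and RGM receptor that also binds BMPs, was at 3.86, 3.47, 3.40 and 3.82 and then -0.26, 0.08 and 1.09, a fall of 3.34 ± 0.39 (adjusted p = 2.64e-06). It had the smallest p of 32 tested axon guidance genes, of which 4 fell and 2 rose (1 rise without saline library 3, 2 falls without G-CSF library 2 or saline library 4). Of 24 tested Notch genes 4 rose and 1 fell, but 0 rose and 2 fell under scaling to the listed genes, and leaving out single libraries gave 0 to 2 of each. In the Wnt list 1 of 27 fell, Rnf43, and that call was lost without G-CSF library 1 or 3 or saline library 1 or 2; 2 of the list fell without saline library 3.

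The remaining large falls included several regulators. Plk2, a polo-like kinase gene induced by serum and by p53, was at 5.63, 6.59, 5.73 and 5.80 after saline and 3.03, 1.75 and 1.98 after G-CSF. All saline values were more than 2 log2 units above all G-CSF values, and the fall was 3.69 ± 0.41 (adjusted p = 1.44e-06). Runx1t1, the ETO co-repressor gene, fell by 3.27 ± 0.35, Ehd2, an endocytic ATPase gene, by 2.64 ± 0.44, the sulfotransferase gene Chst2 by 2.42 ± 0.27, Plekhg1 by 2.37 ± 0.35 and the focal adhesion gene Tns2 by 2.30 ± 0.22. The calls of Inhba and Aebp1 were less stable: Inhba (-2.58 ± 0.81, adjusted p = 0.04) lost its call when any single library other than G-CSF library 1 was left out, and Aebp1 (-2.58 ± 0.70) lost it without G-CSF library 1. Meis2, a homeobox gene, and Bmp8a were chosen after their values were seen. Meis2 had 84, 76, 52 and 122 reads after saline and 2, 2 and 1 after G-CSF, a 46.8-fold lower rate of pooled reads (19.9 to 145.1). Bmp8a had 33, 52, 87 and 49 against 1, 1 and 3 (31.0-fold lower, 13.1 to 96.3).

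Megakaryocyte genes changed in both directions. Of 32 tested, 6 rose and 7 fell (median -0.28). Selp, which encodes P-selectin of platelets and endothelium, was at 4.27, 4.07, 3.03 and 3.50 and then 7.49, 7.39 and 7.28, a rise of 3.67 ± 0.36 or 12.8-fold (adjusted p = 2.79e-07). Gata1, the erythroid and megakaryocytic transcription factor, was at 4.24, 3.88, 4.30 and 2.89 and 5.69, 5.41 and 5.62, also without overlap (1.75 ± 0.26, adjusted p = 8.13e-05). Itga2b, the integrin alpha IIb gene, rose by 0.93 ± 0.19, while Pf4, the platelet chemokine gene, went from 4.78, 4.64, 4.86 and 5.45 to 3.78, 2.85 and 3.47 and so fell by 1.57 ± 0.31. Of 23 tested erythroid and iron genes 4 rose and 4 fell, with 2 falls left without G-CSF library 2 or saline library 1. Hmox1, the haem-degrading enzyme, fell by 1.89 ± 0.38. The summed level of the erythroid markers was at most 2.34 CPM in the G-CSF libraries.

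**Figure D3:**
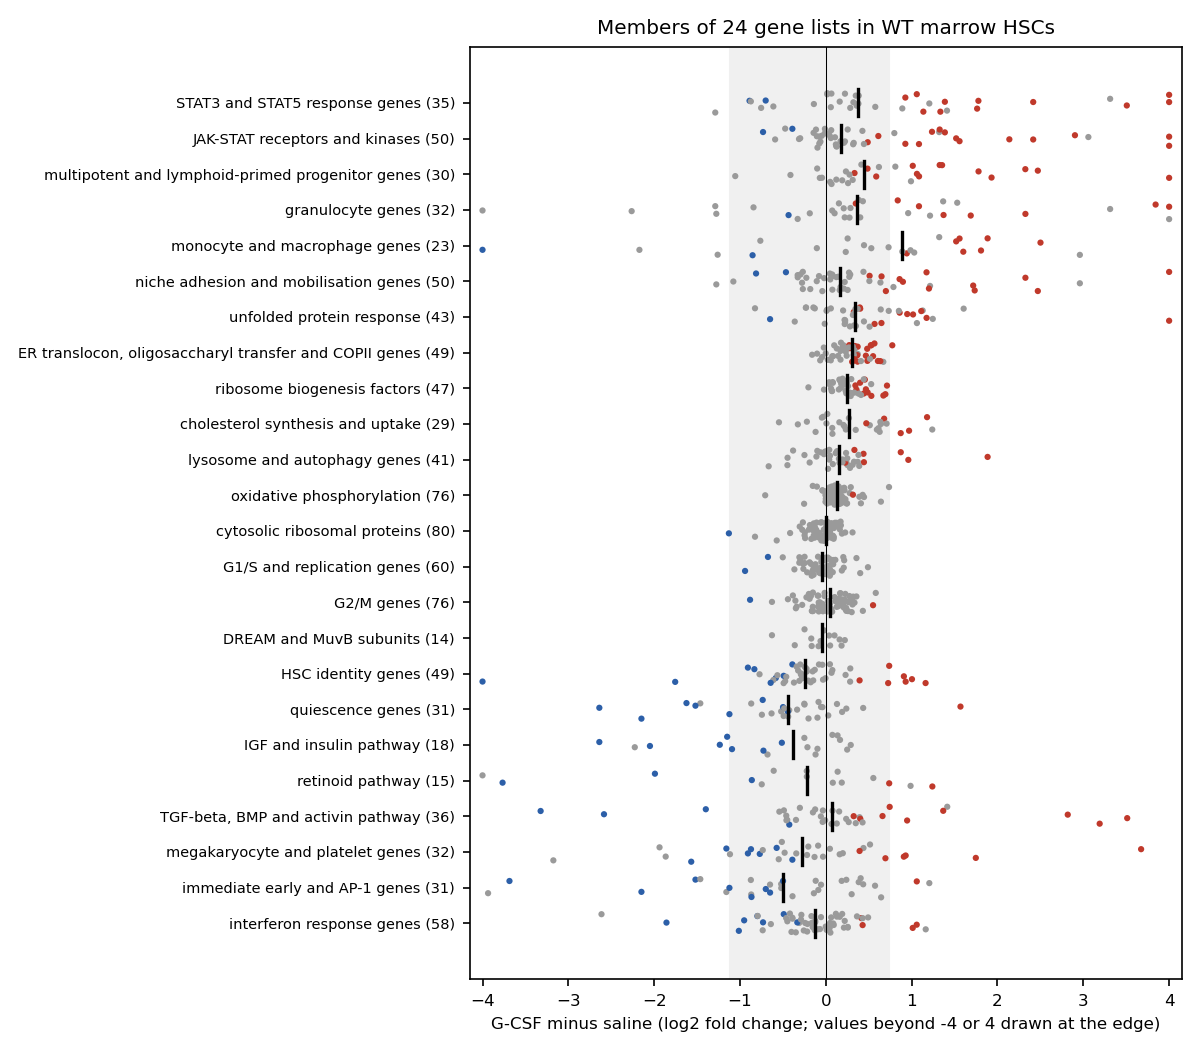
Log2 fold change after G-CSF (x axis) of every tested gene in 24 gene lists (rows); points are genes, black bars list medians, and the grey band spans the 5th to 95th percentile of all tested genes, -1.12 to 0.73. Values beyond 4 in either direction are drawn at the edge. The progenitor list lies to the right with 13 rises and 0 falls, and the IGF and insulin list to the left with 7 falls and 0 rises.

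Adhesion and mobilisation genes, those that tether HSCs to the marrow or guide their exit, mostly rose where they were called. Of 50 tested, 12 rose and 2 fell (median 0.17), with 1 fall left without G-CSF library 1 or saline library 1 and 5 falls when scaled to the listed genes. Ccr1, a receptor of inflammatory chemokines, was at -3.06, -4.42, -3.22 and -1.20 and then 1.83, 2.71 and 2.18, a rise of 5.22 ± 0.63 (adjusted p = 4.35e-06). It was near the limit of detection after saline, at 3, 1, 3 and 13 reads. S1pr3, a sphingosine-1-phosphate receptor, rose by 1.72 ± 0.34, and Plaur, the urokinase receptor, by 0.86 ± 0.17, alongside Itgam and Selp. Cd93, a C-type lectin-like receptor of stem cells and endothelium, fell by 0.81 ± 0.11. The genes most often studied in mobilisation, named after their values were seen, did not pass: Cxcr4, the CXCL12 receptor, was at 4.16, 4.20, 3.86 and 4.96 and 4.09, 4.66 and 4.80 (0.22 ± 0.29, adjusted p = 0.693), with overlapping groups. Itga4, the VLA-4 integrin chain, was at -0.28 ± 0.12 (adjusted p = 0.166) and Cd44 at 0.05 ± 0.09 (adjusted p = 0.785).

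The tetraspanin list held the gene deleted elsewhere in the series. Cd53 (ENSMUSG00000040747, chromosome 3, 106759921 to 106790149, minus strand), a leukocyte membrane organiser, was at 5.90, 5.84, 6.17 and 5.75 in saline and 9.57, 9.83 and 9.80 in G-CSF libraries of wild-type marrow. All G-CSF libraries exceeded all saline libraries by more than 3 log2 units, and the change was 3.82 ± 0.24 or 14.1-fold (adjusted p = 1.08e-10). Of 23 tested tetraspanins 6 rose and 3 fell; 3 rises were left without G-CSF library 1 or 3, and 1 fall without G-CSF library 1 or saline library 1 or 2. Tspan13 rose by 0.86 ± 0.17 and Tspan12 fell by 1.47 ± 0.28.

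Genes of the secretory pathway that were called mostly rose. Of 49 tested genes of the endoplasmic reticulum (ER) translocon, oligosaccharyl transfer and COPII vesicles, 19 rose and 0 fell (median 0.31), but 8 rose without G-CSF library 3, 12 without G-CSF library 1, 11 without saline library 2, and 12 when scaled to the listed genes. Sec61a1, the pore of the translocon, was at 8.35, 8.37, 8.39 and 8.44 and then 9.41, 8.89 and 9.18, a rise of 0.77 ± 0.13 (adjusted p = 0.000305). Srp68, of the signal recognition particle, rose by 0.55 ± 0.09, and the oligosaccharyltransferase gene Stt3a by 0.53 ± 0.10. Of 43 tested genes of the unfolded protein response, 11 rose and 1 fell (median 0.34), with 8 to 15 rises when single libraries were left out. That fall was lost without G-CSF library 1 or 2 or saline library 1, 2 or 3. Vldlr, described above, is on this list. Hspa5, the ER chaperone BiP, was at 9.58, 9.77, 9.86 and 10.33 after saline and 11.23, 10.65 and 10.83 after G-CSF. Its highest saline value, in library 4, lay below the lowest G-CSF value, and the change was 1.02 ± 0.18 (adjusted p = 0.000664). Xbp1, the transcription factor spliced by IRE1, rose by 1.17 ± 0.19, Selenos by 1.11 ± 0.19 and the disulfide isomerase genes Pdia4 and Pdia6 by 0.65 ± 0.11 and 0.40 ± 0.09. Hsp90b1, the chaperone GRP94, chosen after its values were seen for its promoter, rose by 0.33 ± 0.10 (adjusted p = 0.0342).

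The promoters of Hspa5 (chr2:34771840-34772139, plus strand), Pdia6 (chr12:17266339-17266638, plus strand) and Hsp90b1 (chr10:86705395-86705694, minus strand) are shown because they hold the ER stress response element, in capitals, from base -65, from base -98, and from bases -212 and -107. The element, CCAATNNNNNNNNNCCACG on either strand, was present for 20 of the 9977 tested genes with a promoter (0.2%). These included 3 of the 588 genes that rose (0.51%), which are the 3 shown, and 2 of the 545 that fell (0.37%).
Hspa5: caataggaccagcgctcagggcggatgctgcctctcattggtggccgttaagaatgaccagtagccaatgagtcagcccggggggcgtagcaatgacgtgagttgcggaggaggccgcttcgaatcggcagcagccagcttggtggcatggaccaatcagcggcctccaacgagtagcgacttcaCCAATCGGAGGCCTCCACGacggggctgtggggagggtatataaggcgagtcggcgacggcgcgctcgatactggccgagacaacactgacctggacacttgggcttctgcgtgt
Pdia6: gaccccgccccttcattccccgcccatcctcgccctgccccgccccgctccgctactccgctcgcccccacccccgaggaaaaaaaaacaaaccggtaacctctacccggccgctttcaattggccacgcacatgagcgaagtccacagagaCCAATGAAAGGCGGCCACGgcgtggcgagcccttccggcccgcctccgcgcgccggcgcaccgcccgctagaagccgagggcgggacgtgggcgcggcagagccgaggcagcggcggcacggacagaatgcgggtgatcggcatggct
Hsp90b1: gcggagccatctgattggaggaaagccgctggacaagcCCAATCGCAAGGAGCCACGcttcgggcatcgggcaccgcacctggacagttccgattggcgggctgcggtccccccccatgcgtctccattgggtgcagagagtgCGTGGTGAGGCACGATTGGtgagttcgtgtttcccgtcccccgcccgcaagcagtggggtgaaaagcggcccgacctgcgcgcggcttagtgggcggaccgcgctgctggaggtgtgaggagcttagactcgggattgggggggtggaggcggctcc

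Ribosome biogenesis factors showed small rises in part of the list. Of 47 tested, 11 rose and 0 fell (median 0.24), with 5 rises under scaling to the listed genes. Leaving out G-CSF library 3 left 4 rises, G-CSF library 1 or saline library 1 or 2 left 5, and G-CSF library 2 or saline library 4 left 6. Rrp1b rose by 0.49 ± 0.10, the helicase gene Ddx21 by 0.53 ± 0.11 and Bop1, of the PeBoW complex, by 0.71 ± 0.16. Of the ribosomal proteins themselves 0 of 80 rose and 1 fell, Rps13, whose call was lost without any single library except saline library 4. Of 7 mitochondrially encoded genes 0 were called in either direction, with 0 at an unadjusted p below 0.05, and of 76 oxidative phosphorylation genes 1 rose, Atp5f1, lost without G-CSF library 2 or 3 or saline library 2 (2 of the list rose without saline library 3). Among 41 tested lysosome and autophagy genes 7 rose and 0 fell, among them Lamp2 (0.96 ± 0.11) and Ctsh (0.87 ± 0.14), while 1 fell without G-CSF library 3. In glycolysis 3 of 28 rose and 1 fell: Aldoc rose by 0.71 ± 0.09, Ldha by 0.52 ± 0.10, and Pdk1, which keeps pyruvate out of mitochondria, fell by 0.82 ± 0.16. Of 29 cholesterol synthesis genes 5 rose, a count that was 10 without saline library 4 and 1 to 2 without G-CSF library 3 or saline library 1 or 2.

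Beyond the G1 regulators, cell cycle genes showed few calls. Over all tested genes 5.62% rose and 5.62% fell. Of 24 tested cyclin-dependent kinase inhibitors and G1 cyclin or kinase genes, 2 rose and 3 fell (8.33% and 12.5%). Cdk6, the kinase that brings HSCs out of quiescence, was at 9.68, 9.32, 9.12 and 9.38 after saline and 10.89, 11.42 and 11.10 after G-CSF, with no overlap, and rose by 1.76 ± 0.17 (adjusted p = 2.12e-07). Its partner Ccnd2 was at 9.64, 9.78, 9.82 and 9.91 and then 8.83, 8.94 and 8.94, a separate and lower set of values (adjusted p = 1.81e-05). E2f1, the S-phase transcription factor, fell by 0.94 ± 0.20. Cdkn1b (0.19 ± 0.23, adjusted p = 0.661), Ccnd1 (-0.61 ± 0.25, adjusted p = 0.12) and Ccnd3 (0.28 ± 0.15, adjusted p = 0.258) did not pass. Of 60 tested G1/S and replication genes 2 fell and 0 rose (median -0.04). Of 76 tested G2/M genes 1 rose and 1 fell (median 0.05, or -0.02 when scaled to the listed genes). Kif23, which acts in cytokinesis, fell by 0.88 ± 0.21, a call lost without G-CSF library 3. Bub1, a spindle checkpoint kinase gene, rose by 0.55 ± 0.18, a call lost without G-CSF library 1 or 2 or saline library 2, 3 or 4. Mki67 and Top2a, proliferation genes named after their values were seen, were at -0.20 ± 0.20 (adjusted p = 0.594) and 0.00 ± 0.16 (adjusted p = 0.997).

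Lists of inflammatory genes are set beside all tested genes, of which 5.62% rose and 5.62% fell. Of 58 tested interferon response genes 7 fell and 4 rose (12.07% and 6.9%, median -0.13). Scaling to the listed genes gave 12 falls and 1 rise, leaving out G-CSF library 1 or 3 or saline library 2 gave 0 rises, saline library 4 gave 2, and G-CSF library 2 or saline library 1 gave 4 falls. Gbp4 (-1.86 ± 0.35) and Iigp1 (-0.95 ± 0.21), both interferon-induced GTPase genes, fell. Of 30 Toll-like receptor and inflammasome genes 6 rose (20.0%) and 1 fell (3.33%). That fall was lost without G-CSF library 1 or saline library 2 or 4. Myd88, the adaptor of these receptors, rose by 0.78 ± 0.10 and the kinase gene Irak4 by 0.66 ± 0.12. In the NF-kB list 2 of 32 rose and 2 fell (6.25% each), close to the share over all tested genes. Leaving out any library but saline library 4 left 1 fall. Nfkb1 rose by 0.68 ± 0.09 and Tnip3, an inhibitor of NF-kB, fell by 1.30 ± 0.13.

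Of 31 tested immediate early genes 8 fell and 1 rose after G-CSF (median -0.50). This rested in part on saline library 3: without it 4 fell and the median was -0.16. Falls numbered 3 without G-CSF library 1, 4 without G-CSF library 2, 5 without G-CSF library 3 and 4 without saline library 2, and the rise was lost without G-CSF library 1 or 3 or saline library 2. Egr1, an early growth response factor that restrains HSC proliferation and exit from the niche, was at 6.33, 5.10, 5.69 and 5.34 and 3.20, 2.68 and 4.52, the highest G-CSF value below the lowest saline value, and fell by 2.15 ± 0.42 (adjusted p = 0.00155). Fos was uneven after saline (6.32, 4.05, 6.27 and 3.62), overlapped with the G-CSF libraries (3.15, 4.49 and 4.92) and did not pass (adjusted p = 0.555); it was named after its values were seen. Of 22 SOCS, DUSP and Sprouty feedback genes Socs3 was the 1 that rose, and 4 fell, or 2 without G-CSF library 1 or 2 or saline library 2 or 3. Spred2, an inhibitor of the RAS and ERK pathway, fell by 1.21 ± 0.21, and Dusp6, the ERK phosphatase gene, by 0.87 ± 0.20.

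The same treatment was measured in Cd53 KO marrow (4 G-CSF and 3 saline libraries), which shares no library with the wild-type comparison. There 757 genes rose (5.57%) and 584 fell (4.3%), 9.87% of the tested genes in all, with 344 to 383 falls when 1 of the 3 KO saline libraries was left out, 883 without KO G-CSF library 3, and 865 calls in all without KO saline library 1. Of the wild-type rises 417 also rose in KO marrow, 54.6% of the wild-type and 55.1% of the KO rises, and 280 falls were shared, 36.6% of the wild-type and 47.9% of the KO falls. A gene called in opposite directions did not occur. Of the 764 wild-type rises 97.4% had a positive log2 change in KO marrow, and of the falls 90.8% had a negative one. The wild-type rises had a median log2 change of 0.66 in the marrow they were called in and 0.51 in KO marrow, and the falls -0.86 and -0.51; the wild-type values come from the comparison that chose these genes. Socs3 rose by 4.23 ± 0.24 in KO marrow, Muc1 by 5.10 ± 0.23, Vldlr by 3.86 ± 0.13 and Tgfbi by 2.86 ± 0.12, while Igf1 changed by -2.37 ± 0.27 and Rarb by -2.70 ± 0.42.

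A direct test of the difference between the 2 genotypes' responses (the interaction in limma) called 0 genes (0%), with 971 at an unadjusted p below 0.05. It called 7 genes without KO saline library 2, 3 without KO saline library 3, and 1 without wild-type G-CSF library 2 or wild-type saline library 2. The smallest p values belonged to Cit, Kif14, Gjb5, Pes1, Pif1 and Nefh. Cit, the citron kinase gene of cytokinesis, changed by -0.21 ± 0.15 in wild-type and 0.95 ± 0.15 in KO marrow, a difference of 1.15 ± 0.21 (adjusted p = 0.243). Pes1, of the same complex as Bop1, changed by 0.69 ± 0.17 and -0.42 ± 0.17 (difference -1.11 ± 0.24, adjusted p = 0.26). Of the G2/M genes 45 of 76 rose in KO marrow (median 0.70), against the 1 given above for wild-type marrow, and Top2a had 0.68 ± 0.16 in KO marrow with an adjusted p of 0.519 for the difference. Of the ER translocon genes 3 rose in KO marrow and of the unfolded protein response genes 3, with medians of 0.12 and 0.16. Hspa5 changed by 0.47 ± 0.18 there (adjusted p = 0.113), the difference having an adjusted p of 0.697. Bmp4 (0.48 ± 0.67 in KO marrow) and Gata1 (0.67 ± 0.26) likewise had adjusted p values of 0.284 and 0.54 for the difference.

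**Figure D4:**
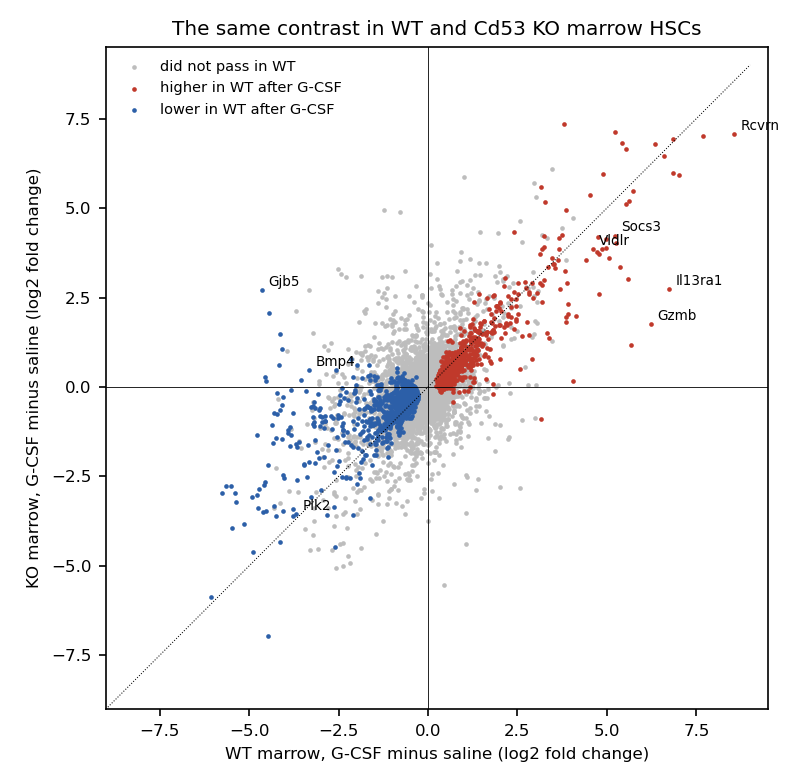
Log2 fold change after G-CSF in wild-type marrow (x axis, 3 against 4 libraries) and in KO marrow (y axis, 4 against 3 libraries) for the tested genes; the dotted line marks equal change. Socs3, at 5.23 and 4.23, and Muc1, at 5.54 and 5.10, rose in both and lie below the line, and 0 genes passed the test of the difference.

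HSCs from the spleens of G-CSF-treated wild-type mice (4 libraries) give a second view of the treated cells. The spleen was compared with the same 3 treated marrow libraries, so the values below are set side by side only. The genes were named for their change in those marrow libraries, so the adjusted p values against spleen are not independent of that choice. Against treated marrow 940 genes were higher in spleen (6.92%) and 927 lower (6.82%), or 403 and 271 without G-CSF marrow library 1, 534 and 446 without G-CSF marrow library 3, 1078 in all without spleen library 1, and 1058 without spleen library 2. Several of the genes that fell in marrow stood higher in spleen: Neo1 was at 3.64 ± 0.24 in saline marrow, 0.30 ± 0.70 in treated marrow and 3.73 ± 0.05 in treated spleen (SD), the last differing from treated marrow with an adjusted p of 9.81e-06. Ehd2 stood at 3.28 ± 0.37, 0.64 ± 0.23 and 3.34 ± 0.24 in the same order (adjusted p = 0.000632). Igf1 was at 3.25 ± 0.35 in spleen, between its 2 marrow means (adjusted p = 0.00458). Tns2, at 3.60 ± 0.23 in spleen, was close to its treated marrow mean of 3.52 ± 0.49 and did not pass (adjusted p = 0.823). Among the rises Muc1 was at 6.15 ± 0.15 in spleen against 6.34 ± 0.23 in treated marrow (adjusted p = 0.613), and Selp at 8.04 ± 0.24 against 7.39 ± 0.10 (adjusted p = 0.238). Vldlr was lower in spleen than in treated marrow, at 6.76 ± 0.16 against 8.19 ± 0.10 (adjusted p = 4.68e-07), and still above its saline mean of 3.57 ± 0.05. Cd34 at 8.80 ± 0.34 and Flt3 at 5.72 ± 0.30 in spleen were below treated marrow (adjusted p = 1.33e-05 and 0.000578) and close to or below the saline marrow means of 8.87 ± 0.14 and 6.48 ± 0.64. No saline spleen was analysed here, so tissue and treatment cannot be told apart in the spleen values.

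**Figure D5:**
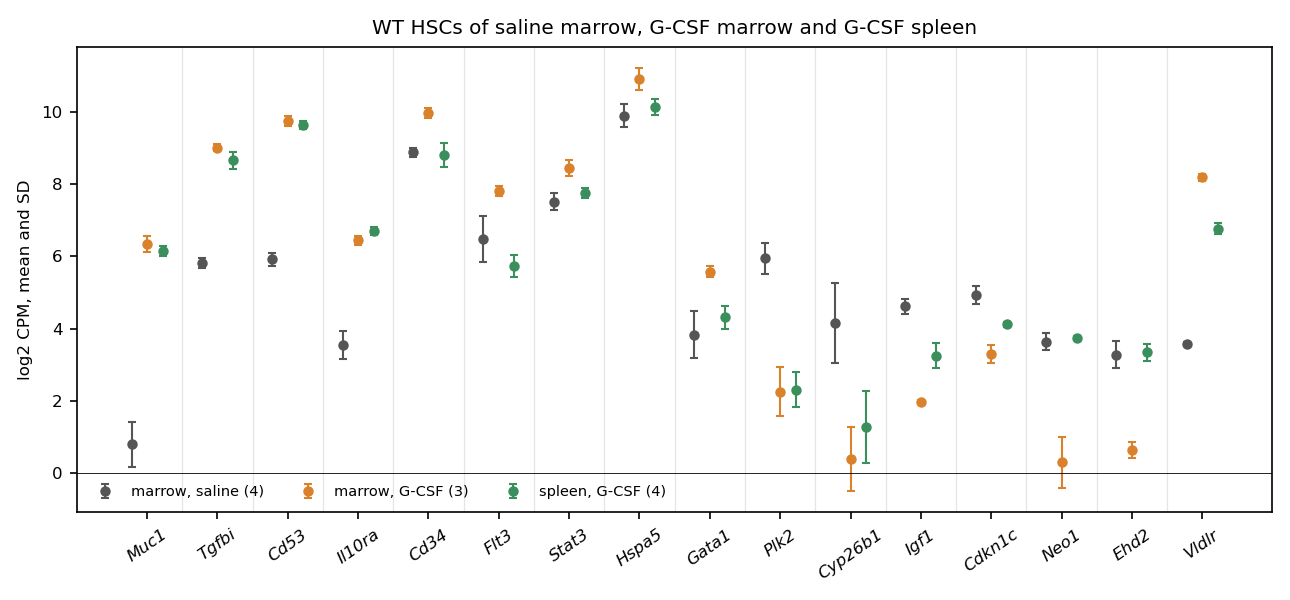
Mean and SD of the level in log2 CPM (y axes) of 16 genes in wild-type HSCs from saline marrow (4 libraries), G-CSF marrow (3) and G-CSF spleen (4). Muc1, Tgfbi and Cd53 are high in both treated groups, whereas Neo1 and Ehd2 are low in treated marrow and near their saline marrow level in spleen.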

How the data were processed

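Expression was measured by RNA-seq in 22 libraries of sorted HSCs (RNA isolated with a NucleoSpin RNA XS kit and amplified with a SMARTer Ultra Low kit, per the labels' protocols). The values were deposited by the authors as log2 CPM per gene in 1 table for all samples. Tools in the submitters' processing notes are STAR 2.5.1a, Salmon 0.8.2, featureCounts 1.4.6-p5 of Subread, limma, edgeR and bcl2fastq, with the build mm10, and their roles are not given in the sources used here. The table has 13645 lines. The 51 repeated genes (identical values) were used once, leaving 13594 genes, and 19 symbols written as dates were restored through gene identifiers. GENCODE M21 gave 13588 genes a position.

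The low values of each library fell on steps worth whole reads after an offset of 0.5 reads (100% of values within 0.05 of a whole number), which gave the read counts quoted; 3 reads is the limit that a count of 0 allows. Intervals cover counting error only.

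The 13586 genes that exceeded 1 CPM in 3 or more samples were fitted with limma 3.58.1 (R 4.3.3): 6 group means over all 22 samples and a variance trend, with Benjamini-Hochberg adjustment over all genes tested and a threshold of 0.05. Log2 changes are given with their SE and group means with their SD. Alternatives were other scalings, filters and offsets, a replicate block, sample weights, voom on the recovered reads, the 7 samples alone, and leaving out each sample in turn. Scripts were tested on simulated data.

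The genes named are the largest 12 rises and 12 falls that do not overlap between groups, whose higher group averaged 3 log2 CPM or more and which are not predicted genes, up to 6 genes of smallest p in each list, all members of the gate, STAT and G1 lists, Cd53, and 6 genes of the interaction; others are marked where they appear, and some genes within this rule are not reported here. The comparison, the members and the lists were chosen with earlier results of these data known. Promoters (250 bases before to 50 after the start) came from RefSeq, GRCm38.p6. A gene with several promoters counted as holding a motif if any of them did. Other software was Python 3.11.15, pandas 2.3.3, NumPy 2.4.6, SciPy 1.17.1 and matplotlib 3.10.9.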

Additional observations from a re-analysis of the deposited data

Results flagged for a closer look

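Among the 320 named genes, 18 had 1 saline library far from the other 3, judged by the gap to the nearest value over the group's range; chance alone gives about 1 group in 20. In saline library 1 the gap was 0.835 of the range for Emcn, 0.843 for Bub1, 0.842 for Gstm1, 0.869 for Osm and 0.905 for Junb, the first 3 high and the last 2 low. In saline library 2 it was 0.981 for Plekhg1 and 0.963 for Tlr1, both high, and 0.832 for Tfdp1, 0.833 for Bad and 0.958 for Aldoc, all low. In saline library 3 the values of Dll4 (0.874), Hmox1 (0.877) and Gbp4 (0.923) were low. Saline library 4 was high for Znrf3 (0.918), Fcer1a (0.904), Nfkb1 (0.889) and Cdkn1b (0.869) and low for Tfdp2 (0.897). The gaps of Fcer1a and Tlr1 rest on few reads: 0, 0, 0 and 1 for Fcer1a and 0, 9, 0 and 0 for Tlr1 in the saline libraries. Of these genes Plekhg1, Hmox1, Gbp4 and Gstm1 fell after G-CSF, and Fcer1a, Nfkb1, Tlr1, Bub1, Aldoc and Osm rose. Groups of 3 libraries were not examined in this way.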

How the results depend on the processing

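Of the 320 named genes 201 passed the test, 135 of them under all 18 alternatives and 137 under each of the 7 sets without 1 library, and 0 changed direction. For wild-type marrow the total lay between 1303 and 1603 genes under the alternatives that left out no wild-type marrow library, except sample weights, which gave 2235 (1075 higher and 1160 lower). Leaving out 1 library gave 969 to 1365 calls, 474 to 694 higher and 480 to 671 lower. In KO marrow it gave 865 to 1910, with 515 to 1027 higher and 344 to 883 lower. The difference between genotypes had 0 to 7 calls, 0 to 7 higher and 0 to 3 lower. For spleen against treated marrow leaving out 1 library gave 674 to 1818, with 403 to 969 higher and 271 to 921 lower, and sample weights gave 2857 (1454 and 1403). The cause of these movements was not tested; smaller sets have fewer samples. Replicate numbers did not pair the wild-type marrow libraries. Deviations of same-numbered saline and G-CSF libraries there correlated at -0.01, 0.02 and 0.03, and not every library correlated best with its own number. In KO marrow the same-numbered correlations were 0.08, 0.05 and 0.14, each higher than with any other number tried. Between wild-type treated marrow and spleen they were 0.04, 0.09 and 0.04, not in every case the highest. With the replicate block 1303 genes were called in wild-type marrow (647 higher, 656 lower), and 2 for the difference between genotypes (1 higher, 1 lower). The block gave 1585 calls in KO marrow (853 higher, 732 lower) and 1373 for spleen against treated marrow (681 higher, 692 lower). Depth of 26455964 or more reads leaves 3 reads at 0.0918 to 0.116 CPM, so changes of genes near 0 reads rest on few molecules.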

Other observations

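The remaining gene lists are set beside all tested genes, of which 5.62% rose and 5.62% fell. Of 26 tested genes of MHC class I antigen presentation 2 fell, the non-classical genes H2-Q6 (-0.77 ± 0.17) and H2-Q4, which are close copies whose reads can be divided wrongly. Of 7 genes of the Ly6 and Ifitm families 5 rose and 1 fell (71.43% and 14.29%, median 0.54). Of 19 complement and acute phase genes 4 rose and 1 fell (21.05% and 5.26%), the fall being that of Cd55, which protects cells from complement. The p53 targets had 2 rises and 3 falls of 35, the BCL2 family 0 rises and 1 fall of 17, the Myc, Max and Mxd network 0 rises and 2 falls of 14, redox defence genes 3 of each of 33, and DNA methylation and chromatin regulators 1 rise and 3 falls of 30. Of 14 DREAM and MuvB subunit genes 0 passed in limma, with 1 at an unadjusted p below 0.05.

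Marker lists of other cell types were also counted. Of 8 genes of mature B and plasma cells 1 rose, Xbp1. Of 7 genes of T and NK cells 3 rose, Nkg7, Gzmb and Klrb1c, and Gzmb had 0 reads in each saline library and 36, 13 and 88 in the G-CSF libraries. Of 13 genes of dendritic cells, mast cells and eosinophils 2 rose and 1 fell, and of 14 endothelial and stromal genes 3 rose, Pdgfrb (2.22 ± 0.25), Sparc and Pecam1.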
